A study of Mus musculus with 8 samples.

Results

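The genes described here are the immunoglobulin Fc receptor genes that differed between liver macrophages of mice on a western diet (WD) and on a normal diet (ND). They were selected by symbol (names starting with Fcgr, Fcrl or Fcer, leaving out Fcer1a) from a table of 2386 genes that the authors had already filtered on p and fold change. The rule found 4 genes: Fcgr1, Fcgr2b, Fcgrt and Fcrl5. Because that comparison's p and fold change chose the members, their own values are a description and support nothing beyond it. The first of these genes is an activating receptor and the second an inhibitory one, while Fcgrt is a transport receptor and Fcrl5 a receptor-like protein, so the 4 are not all activating or inhibitory receptors of the classical kind. RNA came from 4 libraries per diet, all labelled as liver macrophages of strain C57BL/6. The labels name no genetic change and give neither the age of the mice, nor the make-up and length of the diets, nor how the cells were isolated. The table's header and name write the groups WDV and NDV, read here as the western and normal diet libraries, although no label says what the V stands for. The table holds 1 mean count and 1 fold change per gene and no value for any single library, so the libraries cannot be shown one by one and their depth is unknown. Values after ± are the standard errors (SE) that the authors give for a log2 fold change of WD over ND. The design text gives 4 mice per diet but no label ties a library to a mouse, so p-values may measure spread between samples only.

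Fc receptors bind the constant part of antibodies and tell phagocytes that a particle is coated with immunoglobulin. Activating receptors such as the product of Fcgr1 signal through a partner chain, encoded by Fcer1g, that carries a tyrosine-based activation motif (ITAM) and recruits the kinase Syk. The product of Fcgr2b carries an inhibitory motif (ITIM) in its own tail and recruits the phosphatase SHIP1, encoded by Inpp5d. In liver, the same inhibitory receptor is abundant on sinusoidal endothelial cells, where it takes up small immune complexes from blood, and Kupffer cells carry several Fc receptors.

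The activating and the inhibitory receptor gene changed in opposite directions and by nearly the same size. The gene of the high-affinity receptor for immunoglobulin G, Fcgr1 (ENSMUSG00000015947, protein-coding, mm10 chromosome 3, 96282909 to 96293969, minus strand), had a mean normalized count of 1090 in the authors' deposited table. It was 2.60-fold higher in WD there, at a log2 fold change of 1.38 ± 0.13 (the adjusted p of 3.68e-24 is also theirs). The SE gives a 95% interval from 2.18-fold to 3.11-fold. Among the 706 listed genes with a positive fold change, it held place 3 by p but only place 357 by size of change. Its p was thus among the smallest of the higher genes, and its size of change lay near their middle.

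Fcgr2b, the gene of the inhibitory receptor (ENSMUSG00000026656, protein-coding, mm10 chromosome 1, 170958617 to 170976547, minus strand), had a mean normalized count of 9034 in the authors' deposited table, the 5th highest of all listed genes. It was 2.59-fold lower in WD there, at a log2 fold change of -1.38 ± 0.091 (their adjusted p was 5.31e-49), and the 95% interval ran from 2.29-fold to 2.94-fold. It stood at place 35 by p among the genes to which the authors gave an adjusted p and at place 1333 of 1680 by size among the lower genes. Many lower genes therefore fell further.

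**Figure D1:**
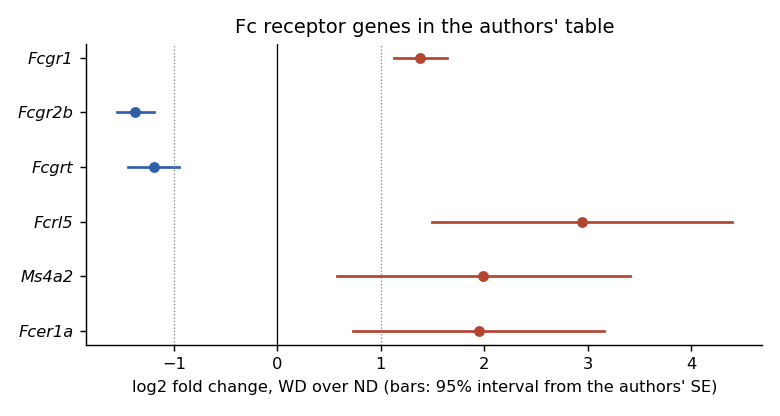
Log2 fold change, WD over ND (horizontal axis), of the 4 Fc receptor genes, with Ms4a2 (the beta chain of the mast cell receptor for immunoglobulin E) and Fcer1a (its alpha chain, left out by the selection rule) below them. Points are the authors' values, bars are 95% intervals from their SE, and dotted lines mark a log2 fold change of 1 in either direction: Fcgr1 at 1.38 and Fcgr2b at -1.38 lie at nearly equal distance on either side of 0, and Fcrl5 has the widest bar.

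The DNA around the start sites of this pair is shown because their transcripts changed in opposite directions. Both stretches hold 250 bases before and 50 bases after the start, come from RefSeq on GRCm38.p6 (the assembly of mm10), and are written 5′ to 3′ on the gene's own strand. Fcgr1 lies at chr3:96293920-96294219 (minus strand) and Fcgr2b at chr1:170976022-170976321 (minus strand). Capitals mark matches to the core of a PU.1 site, written GAGGAA and searched on both strands. PU.1 is a transcription factor of myeloid cells.
Fcgr1: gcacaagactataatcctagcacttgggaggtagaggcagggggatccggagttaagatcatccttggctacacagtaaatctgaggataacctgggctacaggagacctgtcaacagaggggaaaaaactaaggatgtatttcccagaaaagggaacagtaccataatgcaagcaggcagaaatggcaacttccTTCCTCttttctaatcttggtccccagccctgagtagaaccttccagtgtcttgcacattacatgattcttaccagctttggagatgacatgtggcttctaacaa
Fcgr2b: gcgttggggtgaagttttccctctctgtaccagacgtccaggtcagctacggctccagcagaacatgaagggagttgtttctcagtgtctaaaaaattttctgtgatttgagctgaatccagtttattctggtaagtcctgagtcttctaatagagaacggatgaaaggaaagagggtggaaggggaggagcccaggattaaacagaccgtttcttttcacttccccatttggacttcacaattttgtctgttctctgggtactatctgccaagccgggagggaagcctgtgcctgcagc

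The Fcgr1 stretch held 1 match, from -55 to -50 relative to the start (chromosome 3, 96294019 to 96294024). It reads TTCCTC, so GAGGAA is on the opposite strand. No match was found in the Fcgr2b window, nor in those of Fcgrt and Fcrl5, which says only that these letters are not in those 300 bases. Of 32851 RefSeq promoters of the same length, 28.3% held the motif. Counted by gene, it was present for 45.0% of called higher genes, 32.7% of called lower genes and 31.3% of all genes with a promoter. A match in a sequence is a description and does not show that the factor was bound.

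The 2 fold changes of Fcgr1 and Fcgr2b differ by 2.75 on the log2 scale, so that the ratio of Fcgr1 to Fcgr2b transcript was 6.75-fold higher in WD. How the 2 genes vary together over libraries is not in the table, but the SE of this difference is at most 0.22 whatever their correlation. Group levels can be worked out from the mean count and the fold change if the mean was taken over these 2 groups of 4 libraries, with equal weight for each group. On that reading, Fcgr1 had a mean normalized count of 605 in ND and 1575 in WD. Fcgr2b had 13041 in ND and 5027 in WD. Per kb of annotated exon, Fcgr2b transcript then exceeded Fcgr1 transcript 9.64-fold in ND and 1.43-fold in WD. With the length of the longest coding transcript in place of all exons, these ratios were 15.7 and 2.33. The inhibitory receptor's transcript thus remained the more abundant one in both groups under either length, with a narrower gap in WD.

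**Figure D2:**
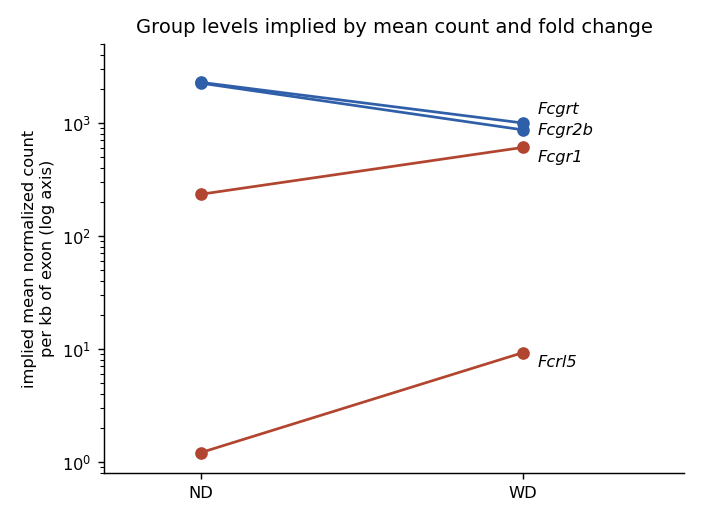
Implied mean normalized count per kb of exon (vertical log axis) in ND and WD for the 4 Fc receptor genes, worked out from the authors' mean count and fold change, with no error bar because no library values were used. Lines join the 2 levels of a gene: Fcgr2b and Fcgrt start together and fall, Fcgr1 rises towards them from 234 to 608, and Fcrl5 stays far below at 1.21 and 9.30.

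Reads may be shared between Fcgr2b and other genes, which matters for how exactly its level is known. Of its distinct 50-base transcript stretches, 6.95% also occur in transcripts of other genes, 2.92% in Fcgr3, the neighbouring activating receptor gene. No such stretch of Fcgr1, Fcgrt or Fcrl5 is shared. An antisense gene, Gm38204, overlaps Fcgr2b on the other strand and shares 155 of its exon bases (2.68%). Whether the libraries kept strand is not given in the sources used here, so reads in that overlap cannot be told apart. In the authors' deposited table Gm38204 had a mean normalized count of 3.70 and a log2 fold change of -1.93 ± 0.88, which did not pass (adjusted p 0.0861). That count is small beside the 9034 of Fcgr2b.

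Fcgrt, which encodes the heavy chain of the neonatal Fc receptor (FcRn), was also lower. FcRn does not trigger phagocytosis but returns immunoglobulin G and albumin from endosomes to the cell surface, and both macrophages and endothelial cells use it. The gene (ENSMUSG00000003420, protein-coding, mm10 chromosome 7, 45092990 to 45103851, minus strand) had a mean normalized count of 3457 and a log2 fold change of -1.20 ± 0.13 (adjusted p 1.74e-19) in the authors' deposited table. This is 2.29-fold lower in WD, with a 95% interval from 1.93-fold to 2.72-fold, so the interval reaches below 2-fold. Of the 4 genes it lies nearest to the table's fold limit, and receptor genes that changed by less than that limit are not in the table. Its implied level was 4815 in ND and 2099 in WD. Fcgrt and Fcgr2b differ by 0.18 in log2 fold change (SE at most 0.22), and their order per length depends on the length used. Over all exons Fcgrt was at 2290 and Fcgr2b at 2252 counts per kb in ND, while over the longest coding transcript they were at 2720 and 3680.

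Fcrl5 had the largest fold change of the 4 and by far the lowest count. Its product is an Fc receptor-like protein with both inhibitory and activating motifs, found mainly on B cells. The gene (ENSMUSG00000048031, protein-coding, mm10 chromosome 3, 87435773 to 87500678, plus strand) had a mean normalized count of 18.3 and a log2 fold change of 2.94 ± 0.74 (adjusted p 0.000492) in the authors' deposited table. It was an estimated 7.70-fold higher in WD, with a 95% interval from 2.82-fold to 21.0-fold, so the size of the rise is poorly known. Its implied mean normalized count was 4.20 in ND and 32.4 in WD. Fcer1a, the mast cell receptor gene that the rule leaves out, was in the same range, with a mean normalized count of 9.53 and a log2 fold change of 1.94 ± 0.62 in the authors' deposited table.

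**Figure D3:**
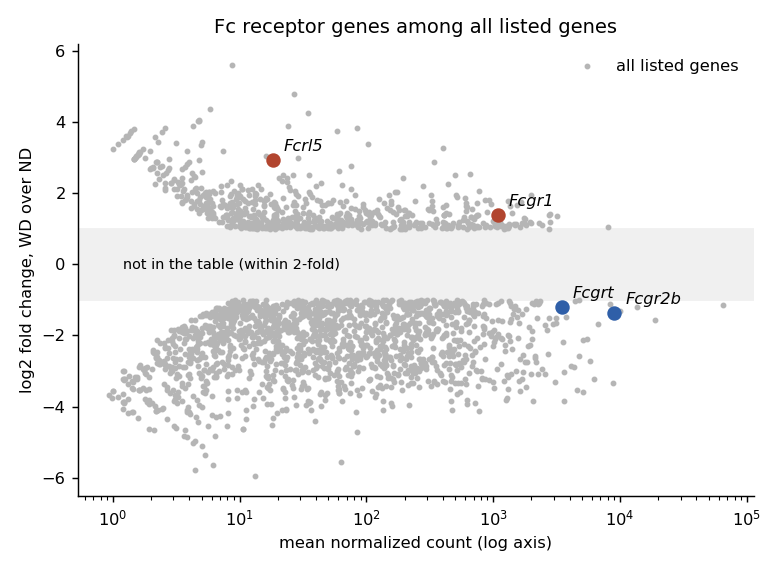
Mean normalized count (horizontal log axis) against log2 fold change, WD over ND, for all 2386 listed genes in grey and the 4 Fc receptor genes in colour. The grey band holds no points because genes within 2-fold are not in the table: Fcgr2b and Fcgrt lie at the right edge among the most abundant listed genes, and Fcrl5 lies at a count of 18.3.

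Precision differed among the 4 genes. Each SE was set beside those of the 100 listed genes nearest in mean count, all from the authors' deposited table. For Fcrl5, 99 of 100 genes with mean counts between 16.6 and 20.1 had a smaller SE than its 0.74, and their median was 0.43. The rise of Fcrl5 is thus less precisely known than that of nearly all listed genes of like count. Fcgr1, at 0.13, had 19 genes with a smaller SE among those with counts between 762 and 1529 (median 0.19). Few listed genes are as abundant as Fcgr2b and Fcgrt. Their nearest 100 reach down to counts of 1358 and 1333, so the comparison is not at like count. Among these, 2 genes had a smaller SE than Fcgr2b (0.091) and 15 a smaller SE than Fcgrt (0.13). The median was 0.20 in both sets.

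**Figure D4:**
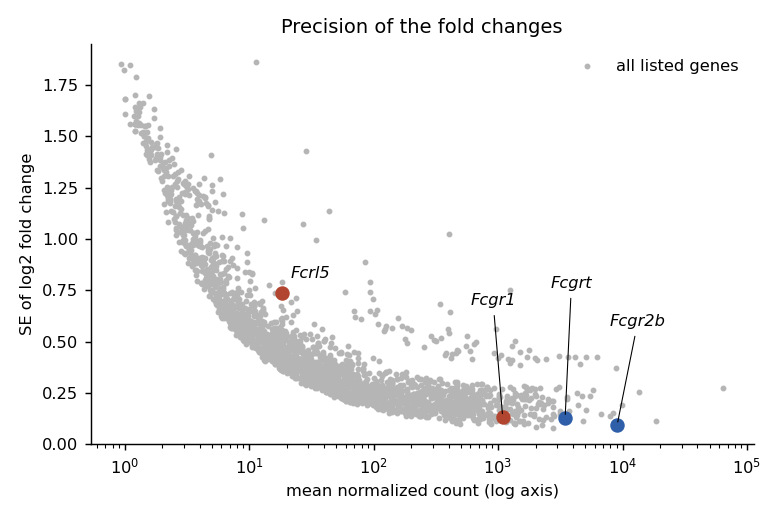
SE of the log2 fold change (vertical axis) against mean normalized count (horizontal log axis) for all listed genes in grey and the 4 Fc receptor genes in colour. Fcgr1, Fcgrt and Fcgr2b lie low among the grey points, and Fcrl5, at 0.74, lies above nearly all those of like count.

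All 4 members passed an adjusted p below 0.05, 2 higher and 2 lower. Of all listed genes 83.4% did so, and listing itself chose the members, so nothing is read from this count. The number of genes with an adjusted p, called tested genes here, was recovered from the authors' adjusted p-values as 17531. Of these, 11.4% passed with a change beyond 2-fold: 3.0% higher and 8.35% lower. Genes given a p but no adjusted p, 77 of the listed ones, are outside that number. Of 19 genes of the wider Fc receptor family and its signalling chains, 3 rose (Fcgr1, Fcrl5 and Ms4a2, the last at 1.99 ± 0.72 in the authors' deposited table), 2 fell (Fcgr2b and Fcgrt) and 14 were not listed. The unlisted ones include Fcgr3 and Fcgr4, which encode the other activating receptors for immunoglobulin G, and Fcer1g, whose product carries their signal. A gene that is not listed may have changed by less than 2-fold, missed p or not been measured. No statement on activating receptors as a group is therefore possible from the table.

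Genes of the signalling path below the receptors passed at about the share of all tested genes (11.4%). Of 36 genes for kinases, adaptors and effectors of ITAM signalling, 2 rose, 2 fell and 32, among them Syk, Lyn, Btk and Plcg2, were not listed. The median log2 fold change of the listed ones was -0.41. That median only lies between the 2 sides, within the 2-fold band that holds no listed gene, so no direction is read from it. Pik3ap1, an adaptor of phosphoinositide 3-kinase, was at 1.12 ± 0.11 in the authors' deposited table, and Cblb, a ubiquitin ligase that restrains receptor signalling, was at 1.01 ± 0.13. Plcg1, a phospholipase C gene, was at -1.83 ± 0.16, and Yes1, a Src-family kinase gene, at -2.19 ± 0.29 in the authors' deposited table. Of 29 genes for other ITIM receptors and their phosphatases, 3 rose, 1 fell and 25 were not listed. The unlisted ones include Lilrb4b, which is not in the gene annotation used, and Inpp5d and Ptpn6, which encode the phosphatases that ITIMs recruit. Cd300lf, an inhibitory receptor gene of myeloid cells, was at 1.12 ± 0.15 in the authors' deposited table, and the sialic acid receptor genes Siglecg and Siglecf were at 1.10 ± 0.18 and 1.10 ± 0.21. Pecam1, an adhesion gene of endothelium and leukocytes, was at -1.71 ± 0.20 in the authors' deposited table. Of the 4 that passed, Pecam1 thus stood on the side of Fcgr2b and the other 3 on the opposite side. None of those 3 had a 95% interval wholly beyond 2-fold. With 25 not listed, no direction of inhibitory receptor genes as a group can be read.

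Genes known to act on Fc receptor levels moved both ways. Interferon-gamma is known to raise Fcgr1. For the counts that follow, 3.0% of all tested genes passed as higher and 8.35% as lower. Of 28 cytokine, receptor and transcription factor genes acting on Fc receptor levels, 1 rose, 4 fell and 23 were not listed. Jak1, a kinase gene of interferon receptors, was at -1.02 ± 0.11, the feedback inhibitor genes Socs3 and Socs1 were at -1.48 ± 0.16 and -1.25 ± 0.23, and Irf1 was at -1.03 ± 0.19 in the authors' deposited table. Ifng itself and the receptor genes Ifngr1 and Ifngr2 were not listed. Of 26 interferon-gamma target genes, which include Irf1 and Socs1 again, 7 rose, 4 fell and 15 were not listed, with a median log2 fold change of 1.12 among the listed ones beside -1.55 over all listed genes. By p the leading ones were Nlrc5 (1.82 ± 0.20) and Ciita (1.65 ± 0.19), regulators of antigen presentation genes, and the chemokine gene Cxcl10 (-1.51 ± 0.20), all from the authors' deposited table.

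Immunoglobulin constant region genes that passed were higher, but none of them encodes a heavy chain of immunoglobulin G. Of 14 such genes, 2 rose and 11 were not listed, of which Ighg2a is not in the gene annotation used. Higher were Ighm, the immunoglobulin M heavy chain, at 1.17 ± 0.24 and Iglc1, a light chain, at 1.41 ± 0.35 in the authors' deposited table. The products of Fcgr1, Fcgr2b and Fcgrt are receptors for immunoglobulin G, but which of its subclasses each one binds was not examined. No gene of a single subclass is therefore read as a ligand gene of any of them. Ighg3, the one listed gene for immunoglobulin G, was at 1.03 ± 0.49 in the authors' deposited table and did not pass (adjusted p 0.104). Complement acts on the same immune complexes. Of 19 complement genes, 1 rose, 2 fell and 16 were not listed. Cfb, factor B of the alternative pathway, was at 1.17 ± 0.37 in the authors' deposited table, while Cd59a and Cd55, which protect cells from complement, were at -3.18 ± 0.19 and -2.68 ± 0.25. Of 25 phagosome genes Ctsl, a lysosomal protease gene, fell (-1.31 ± 0.19 in the authors' deposited table), and the other 24 did not appear there. Over all tested genes, 3.0% passed as higher and 8.35% as lower.

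**Figure D5:**
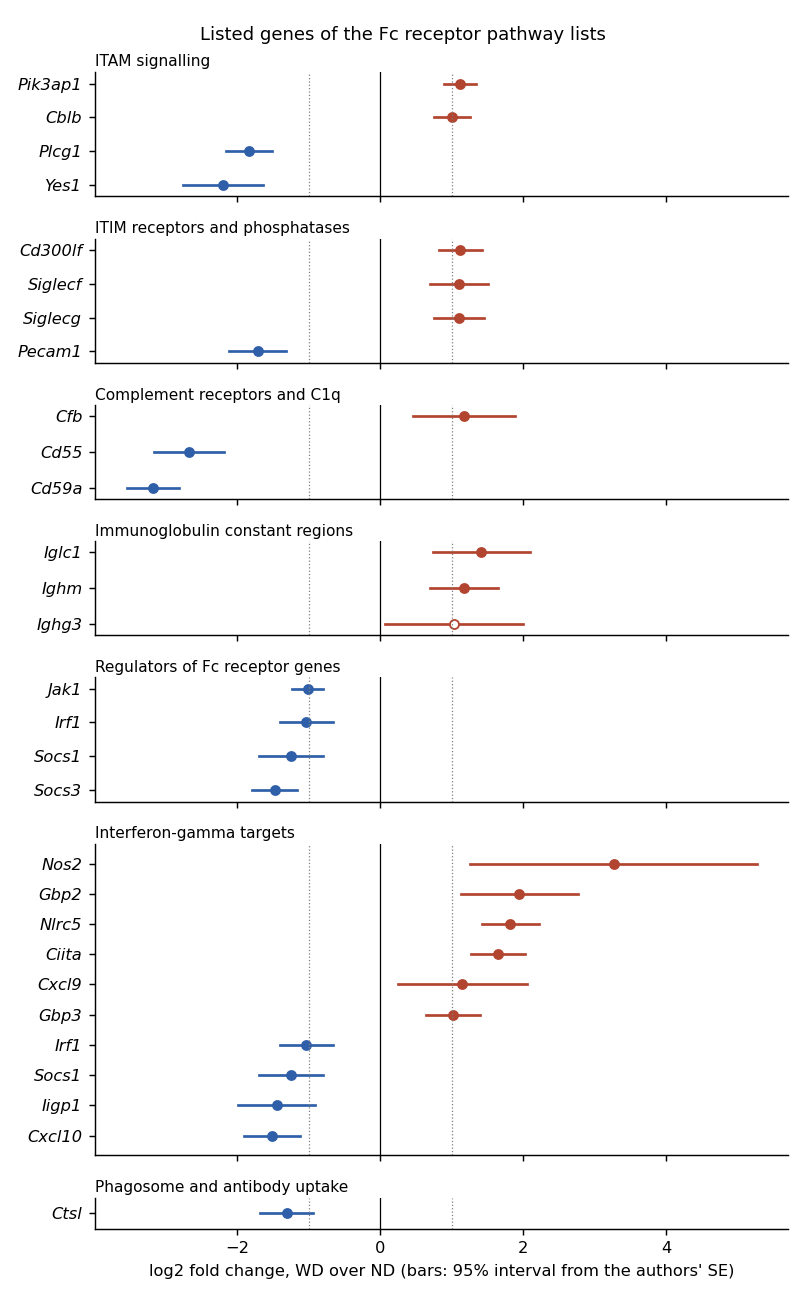
Log2 fold change, WD over ND (horizontal axis), of the listed genes of 7 pathway lists, apart from 1 higher gene of the regulator and interferon-gamma target lists that is not drawn. Points are the authors' values, bars are 95% intervals from their SE, filled points passed an adjusted p of 0.05 and the open point (Ighg3) did not: only the list of immunoglobulin constant regions has all its listed genes on the higher side, and that of phagosome genes holds Ctsl alone.

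Markers of other cells moved in the same comparison, and their part in the Fc receptor values was not tested. In bulk RNA, fewer cells of a type and less RNA per cell cannot be told apart. Over all tested genes, the share that passed was 3.0% higher and 8.35% lower. Of 20 sinusoidal endothelial markers, Fcn3 is not in the gene annotation used. The other 19 were listed and all 19 fell, with log2 fold changes from -4.12 to -1.49 and a median of -3.10. The leading ones by p were Cldn5 (-4.12 ± 0.20), Egfl7 (-3.50 ± 0.20) and Bmp2 (-3.10 ± 0.23) in the authors' deposited table. Their summed implied mean normalized count was 95874 in ND and 12240 in WD. Fcgr2b and Fcgrt, which endothelial cells also use, fell less than each of these 19 markers. Of 18 Kupffer cell markers, 17 were not listed, Clec4f, Timd4 and Adgre1 among them, and Il18bp rose (1.11 ± 0.18 in the authors' deposited table), so the level of the labelled cell type's defining genes cannot be read from the table.

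Markers of recruited monocytes, which carry Fcgr1, were mostly on the higher side among those listed: of 18, 7 rose, 2 fell and 9 were not listed, with a median log2 fold change of 1.39 among those listed. The leading ones by p were Ms4a4c (2.52 ± 0.25), Plac8 (1.76 ± 0.18) and Itga4 (1.28 ± 0.15) in the authors' deposited table. Their listed members' summed implied count was nevertheless higher in ND (96746) than in WD (52296), since that sum is set by Fn1, which fell (-1.13 ± 0.27 in the authors' deposited table) and had the highest mean count of all listed genes. Of 20 dendritic cell markers, 6 rose and 2 fell, led by p by Dpp4 (-2.29 ± 0.27), Zbtb46 (-1.13 ± 0.14) and Ccr7 (1.80 ± 0.27) in the authors' deposited table. Beside Fcrl5 stand the B and plasma cell markers: Ms4a1 rose (1.003 ± 0.35 in the authors' deposited table) and the other 18 of 19, Cd79a and Cd79b among them, were not listed. Of 24 NK and T cell markers 13 rose and none fell at an adjusted p below 0.05, led by Klrk1 (1.87 ± 0.20), Klrd1 (1.38 ± 0.21) and Gzmb (1.51 ± 0.24) in the authors' deposited table. Of 12 mast cell and basophil markers 8 rose and Kit fell (-1.74 ± 0.15 in the authors' deposited table), and the next by p were Cma1 (3.38 ± 0.64) and Cpa3 (3.75 ± 0.74). None of 15 neutrophil markers was listed. Beside these marker counts, 3.0% of all tested genes passed as higher and 8.35% as lower.

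The authors also computed enriched terms from the higher genes. Fcgr1 was named, by the authors' deposited table, in 12 of 373 Gene Ontology terms and in 7 of 78 KEGG terms, of which 9 and 5 had a Benjamini p below 0.05, as had 132 and 47 of all the terms. Fcrl5 was named in 1 term, cell surface receptor signaling pathway, which also holds Fcgr1 (21 genes, Benjamini p 1.44e-10 in the authors' deposited table). Lower genes such as Fcgr2b could not appear. The term phagocytosis, recognition held 20 genes at 8.83-fold enrichment (Benjamini p 2.88e-10 in the authors' deposited table), and 17 of the 20 were immunoglobulin or T cell receptor segments. The same held for phagocytosis, engulfment, with 17 of 19. Not all genes of these 2 terms passed by the authors' adjusted p: 13 of the 20 and 12 of the 19 did. A narrower term, positive regulation of phagocytosis, held 8 genes and none of these segments, and all 8 of them passed by the adjusted p of the authors' deposited table. Among KEGG terms Fcgr1 stood in Tuberculosis (15 genes, Benjamini p 7.12e-06), Leishmaniasis (9 genes, 4.64e-05) and Phagosome (9 genes, 0.0187) of the authors' deposited table. Antibody-dependent cellular cytotoxicity, the term closest to the receptor's role, held Fcgr1 and Ighg3 alone and did not pass (Benjamini p 0.510 in the authors' deposited table).

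The 4 genes lie at 4 separate places, and too few of their neighbours passed to read a common direction. Of all tested genes 11.4% passed, while the neighbours counted below are all annotated genes, tested or not. Within 500 kb of Fcgr2b, 50 other genes are annotated, with Fcgr4, Fcgr3 and Fcer1g among them, and 3 were listed: Adamts4, a matrix protease gene, fell (-1.87 ± 0.48 in the authors' deposited table), while Gm38204 (above) and Gm26641 (adjusted p 0.0508) did not pass. Around Fcgr1, 3 of 88 neighbours were listed: C920021L13Rik rose (1.04 ± 0.37), Lix1l fell (-1.54 ± 0.15) and Gm17690 (adjusted p 0.105) did not pass, by the values of the authors' deposited table. Around Fcrl5, 4 of 31 were listed: Sh2d2a, a T cell adaptor gene, rose (1.14 ± 0.30), Pear1 (-2.86 ± 0.19) and Nes (-1.11 ± 0.29) fell, and Kirrel (adjusted p 0.0583) did not pass in the authors' deposited table. Around Fcgrt, 5 of 91 were listed, and the 3 that passed were lower: Rcn3 (-1.38 ± 0.17), Tead2 (-2.91 ± 0.33) and Atf5 (-1.07 ± 0.18) in the authors' deposited table, with Cpt1c (adjusted p 0.124) and Gm22478 (0.115) not passing. Rcn3 lies 768 bases from Fcgrt on the same strand, and the antisense gene Gm45669 overlaps Fcgrt without sharing exon bases and was not listed.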

How the data were processed

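The data were 1 table of the comparison of 4 WD with 4 ND libraries, with no column of single libraries. Per the labels' protocols, polyadenylated RNA was enriched and cDNA made with random hexamers. Tools listed in the submitters' processing notes, with no role or version, are the aligners STAR and HISAT2, then StringTie, featureCounts, STAR-Fusion, DESeq and edgeR. The same notes give mm10 as build. As deposited, the signal of a gene is its normalized read count averaged by the authors. The deposited log2 fold change and SE have, per the file headers, the names DESeq2 gives them. The deposited score is the Wald statistic, equal to fold change over SE within 7.1e-08. Each row also has the authors' p-value, raw and adjusted, the latter empty for 77 genes. The deposited fold enrichment is a ratio per Gene Ontology term. The largest listed p was 0.04995, and every gene had changed by more than 2-fold.

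The call was an adjusted p below 0.05. The number of tested genes, meaning those with an adjusted p (17531), was the whole number that made most ranks (91.0%) whole within 0.02. This step was tested on simulated data. Intervals are 95% normal intervals from the SE. Levels per kb used GENCODE M21 exons (mm10), onto which all 2386 gene identifiers matched. Promoters came from RefSeq (GRCm38.p6), where all 4 members matched. The text names all members, the passing genes of the pathway lists (at most 5 by p) and neighbours within 500 kb. It also names the 3 leading genes of each marker list. Fcer1a, Fn1, Gm45669, Ighg3 and genes named as unlisted were chosen after values were seen. For interferon-gamma targets the 3 leading were named with those of the regulator list. Of the passing genes of the lists, 1 is counted but not reported here by name. Members and the 16 lists were chosen with earlier results of these data known. Python 3.11.15, pandas 2.3.3, scipy 1.17.1 and matplotlib 3.10.9 were used. Alternatives were other call limits and a mean count minimum of 10.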

Additional observations from a re-analysis of the deposited data

How the results depend on the processing

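No paired analysis was possible because the table holds no values per library, and for the same reason leaving out each replicate was not run. Fcgr1, Fcgr2b and Fcgrt kept direction and call at an adjusted p below 0.01 and by Bonferroni over 17531 genes. Fcrl5 kept them at the former but not by Bonferroni on the authors' p (adjusted value 1), so that 1 higher gene was left there. With the 95% interval wholly beyond 2-fold, Fcgrt was lost (bound nearest 0, -0.95), leaving 1 lower gene. In a Wald test against 2-fold with Bonferroni adjustment, none of the 4 passed from the values of the authors (0.643 for Fcgr2b and 1 for the other 3). Over the pathway lists together, 18 higher and 14 lower genes became 11 and 14 by Bonferroni and 6 and 8 by the interval. Over the marker lists together, 36 higher and 24 lower became 17 and 23, and 13 and 21. Of 32 list counts (16 lists, both directions), 18 moved by over 1.5 times with the interval, 9 by Bonferroni and 1 at 0.01, that of B and plasma cell markers (from 1 to 0). None moved at an unadjusted p below 0.05 or with a mean count of at least 10. By the interval, higher interferon-gamma targets went from 7 to 4 and lower ones from 4 to 1, and both higher ITAM genes were lost. Depth per library is unknown, so what it limits cannot be given.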
